A study of Mus musculus with 12 samples.

Results

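The genes described here are 9 genes of glutamine and glutamate metabolism, of 17955 genes in the deposited expression table. They were chosen by symbol: the glutamine carriers Slc1a5 and Slc38a2, the glutaminase Gls2, the glutamine synthetase Glul, the glutamate dehydrogenase Glud1, and the aminotransferases Got1, Got2, Gpt and Gpt2. All 9 were found and passed the filter on low counts. For 8 of them every library was above its cutoff of 0.559 CPM (counts scaled to library size), while Gls2 passed only through its 3 libraries of knockout mice given DMαKG, a group described next. The RNA came from regulatory T cells (Tregs), which suppress immune responses, isolated from spleen and lymph node of C57BL/6 mice aged 7 weeks by sorting on CD4, CD25 and YFP. There were 4 groups of 3 mice, with 1 library per mouse and 12 in all. Wild-type (WT) mice were Foxp3YFP-creTKT+/+, and knockout (cKO) mice were Foxp3YFP-creTKTfl/fl, in which the transketolase gene Tkt is deleted by a Cre recombinase expressed from the Foxp3 locus. Both genotypes therefore carried the Cre and its fluorescent reporter, and the deletion is directed at cells that express Foxp3. Mice of each genotype received vehicle or dimethyl α-ketoglutarate (DMαKG), a cell-permeable ester of α-ketoglutarate, in the drinking water, starting in the pregnancy of the mother and lasting into adulthood. The labels do not state the dose.

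Glutamine enters T cells through membrane carriers and is deaminated to glutamate by glutaminase in mitochondria. Glutamate is then turned into α-ketoglutarate either by glutamate dehydrogenase, which releases ammonia, or by aminotransferases, which pass its amino group to oxaloacetate or pyruvate and so make aspartate or alanine. Glutamine synthetase runs the opposite way, from glutamate and ammonia to glutamine. DMαKG supplies the product of the dehydrogenase and aminotransferase steps, and α-ketoglutarate is also a co-substrate of the enzymes that demethylate DNA and histones.

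Among the 9 genes, Got1 was the one whose groups lay apart on both scales used here at a level not limited by read number, so its promoter is shown. Promoters of 6 of the 9 genes were matched in a RefSeq table of the GRCm38.p6 build, each read as the 250 bases before the gene start. The string TGATGNAA, the core of the element bound by the amino acid stress factor ATF4, was searched on both strands, as was CACGTG, the E-box bound by Myc, and the strings do not overlap each other. TGATGNAA was in 1 of the 6 windows, that of Got1, where it lies on the opposite strand and starts 102 bases before the gene start, against 3.45% of 32851 promoter windows of the same length. CACGTG was in 0 of the 6, against 6.02% of those windows. The Got1 window is chr19:43524606-43524855 on the minus strand, given 5′ to 3′ along the gene, with the match in capitals.
Got1: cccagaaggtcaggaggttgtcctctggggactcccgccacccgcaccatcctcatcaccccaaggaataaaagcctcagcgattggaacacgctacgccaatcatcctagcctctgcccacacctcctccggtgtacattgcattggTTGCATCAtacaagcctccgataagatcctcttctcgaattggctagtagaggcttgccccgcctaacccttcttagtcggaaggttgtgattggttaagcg
The other pathway genes described further on had 78 windows from 55 genes. TGATGNAA was in 4 of these windows, from 3 genes, Asns, Pycr1 and Slc7a7, and CACGTG in 6, from 4 genes, Aldh18a1, Ogdh, Slc25a13 and Slc38a7. A match is a run of letters and no evidence that the factor binds there.

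Library totals ran from 15700000 to 18900000 estimated counts. The targeted gene followed the labels: Tkt stood at 102 to 194 CPM in the 6 WT libraries and at 26.2 to 41.8 CPM in the 6 cKO libraries. Treg markers were high in every group, with Foxp3 at a mean of 402 CPM over all libraries. On the first principal component, which held 29% of the variance, replicate 4 of WT with vehicle, replicate 4 of cKO with vehicle and replicate 3 of WT with DMαKG lay together at one end, and replicate 3 of cKO with DMαKG lay alone at the other. The Y-linked gene Ddx3y was at 0.518 and 0.509 CPM in replicates 1 and 3 of cKO with DMαKG, at 0.0555 CPM in replicate 3 of WT with vehicle, at 22.6 CPM in replicate 2 of WT with DMαKG and between 109 and 241 CPM in the remaining 8, so Y-linked expression was not balanced over the groups. Summed markers of macrophages and monocytes (15 genes) were at 99.9 to 447 CPM over all libraries, and the group ranges overlapped except between the vehicle groups, which lay at 265 to 447 for WT against 99.9 to 224 CPM for cKO. In bulk RNA, fewer cells of a type and less RNA per cell cannot be told apart.

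The members spanned a wide range of level. Per transcript length, in TPM (values scaled to transcript length and library size) over the 12 libraries, the carrier Slc1a5 was at 196 ± 33.2 (SD, n = 12) and Glud1 at 187 ± 21.7 TPM. These neighbours were not ordered the same way in every library, since Slc1a5 was the higher in 7 of 12. Slc38a2 followed at 148 ± 36.9 TPM and the mitochondrial aspartate aminotransferase Got2 at 112 ± 20.3 TPM, with Slc38a2 the higher in 9 of 12. Glul was at 72.1 ± 11.6 TPM, below Got2 in every library, and the cytosolic aspartate aminotransferase Got1 was at 51.2 ± 14.6 TPM, below Glul in 11 of 12. A gap came next: the cytosolic alanine aminotransferase Gpt was at 5.82 ± 0.795 TPM and its mitochondrial counterpart Gpt2 at 3.34 ± 1.1 TPM. Gls2 was lowest at 0.432 ± 0.298 TPM, above 29.7% of all genes in the table, while Slc1a5 was above 95.9% of them.

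**Figure D1:**
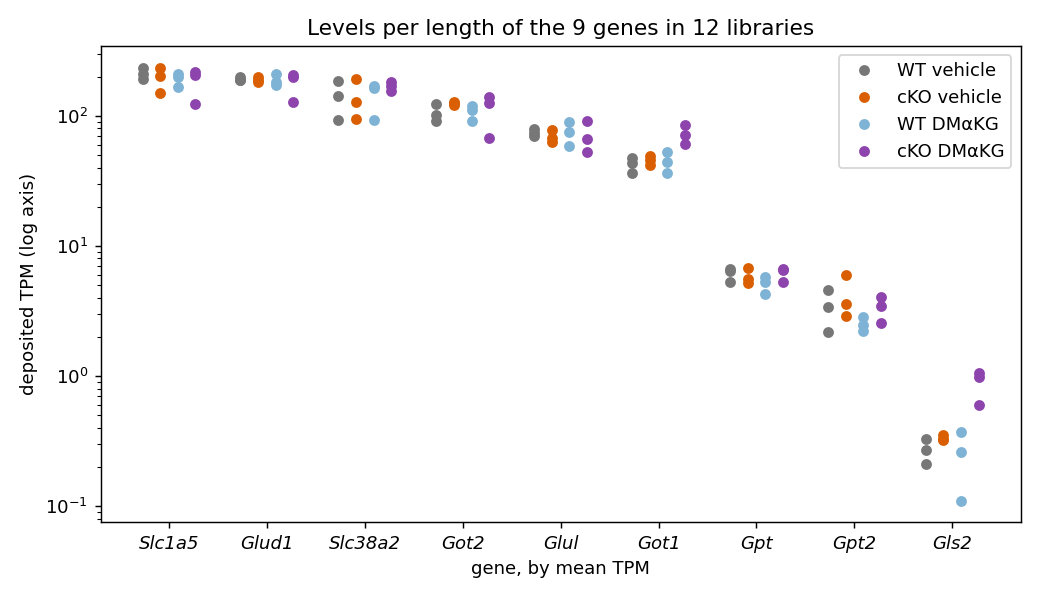
Level of each of the 9 genes in TPM (log axis), 1 point per library, colored by group, ordered by mean over the 12 libraries. Slc1a5 and Glud1 lie at the top near 190 TPM and overlap, and Gls2 lies lowest at 0.432 TPM on average.

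In comparisons between groups, no member passed an adjusted p of 0.05 (edgeR's quasi-likelihood test with Benjamini-Hochberg adjustment over 12903 genes). The largest differences were those of Gls2 and Got1, both highest in cKO Tregs with DMαKG. In cKO against WT with DMαKG, 0 of 9 members were called, beside 0.186% of all genes, and 2 members, Gls2 and Got1, had an unadjusted p below 0.05, beside 10.4% of all genes. Since Gls2 entered the test only through the group where it was high, its p in any comparison with that group is given as a value and not as support, which leaves 1 of the other 8, Got1. In DMαKG against vehicle in cKO, 0 were called, beside 0% of all genes, and the same 2 members were below an unadjusted 0.05, beside 17.3% of all genes. In cKO against WT with vehicle, 0 were called and 0 were below an unadjusted 0.05, beside 0.0620% and 7.29% of all genes, and in DMαKG against vehicle in WT the counts were 0 and 0 beside 0% and 2.73%. With other tools the 2 comparisons that involve cKO with DMαKG each gave 1 call: DESeq2's Wald test called Got1, and limma voom with quality weights called Gls2. The shares of all genes called by these tools are not given here, so the calls are not read as a result about the members. Averaged over treatments, cKO against WT gave 0 members called, beside 1.01% of all genes, with 2 below an unadjusted 0.05, beside 12.8%: Gls2 at a log2 fold change of 1.14 ± 0.33 SE and Got1 at 0.5 ± 0.14 (adjusted p = 0.138 for both). Averaged over genotypes, DMαKG against vehicle gave 0, beside 0.00775% of all genes, with 1 below an unadjusted 0.05, beside 15.9%: Got1 at 0.48 ± 0.14 (adjusted p = 0.174). The interaction gave 0 called and 2 below an unadjusted 0.05, beside 0% and 3.64% of all genes. For cKO against WT with vehicle the 9 log2 fold changes ran from -0.05 for Slc1a5 to 0.4 for Gpt2, and in DMαKG against vehicle in WT from -0.34 for Gpt2 to 0.16 for Got1. The pairwise comparisons of cKO with DMαKG against WT with DMαKG and against cKO with vehicle share the cKO libraries with DMαKG, and are not independent of each other.

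Counted by whether the 3 libraries of one group all lay above those of the other, 4 members (Got1, Gpt, Gpt2 and Gls2) were higher in cKO than in WT with DMαKG, beside 15.0% of all genes in either direction and 7.92% higher. In cKO, 3 members (Got1, Gpt and Gls2) were higher with DMαKG than with vehicle, beside 21.1% of all genes in either direction and 8.91% higher. Since Gls2 passed the filter only through the group where it was high, its place in these counts and those below is not support. Without it, Got1, Gpt and Gpt2 remain between genotypes with DMαKG, and Got1 and Gpt remain for DMαKG in cKO. The other 2 comparisons gave 0 members, beside 15.3% for cKO against WT with vehicle and 8.45% for DMαKG in WT. Leaving out libraries can only add to such counts. Without the 3 libraries at one end of the first principal component they were 4 and 3, beside 22% and 34.4% of all genes, and 1 (Got2) for cKO against WT with vehicle and 5 for DMαKG in WT, beside 49.9% and 52.7%. Without replicate 3 of cKO with DMαKG, the counts were 6 and 5 in the 2 comparisons that use that library, beside 26.3% and 29% of all genes. On the deposited TPM scale only Got1 and Gls2 lay apart, in both comparisons that involve cKO with DMαKG, beside 15.3% and 21.5% of all genes, and the groups overlapped for Gpt and Gpt2. The median log2 fold change of the 9 members was 0.33 in cKO against WT with DMαKG (0.24 without Gls2), where the median of all genes was 0, and 0.12 in DMαKG against vehicle in cKO (0.06 without Gls2), where it was also 0.

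**Figure D2:**
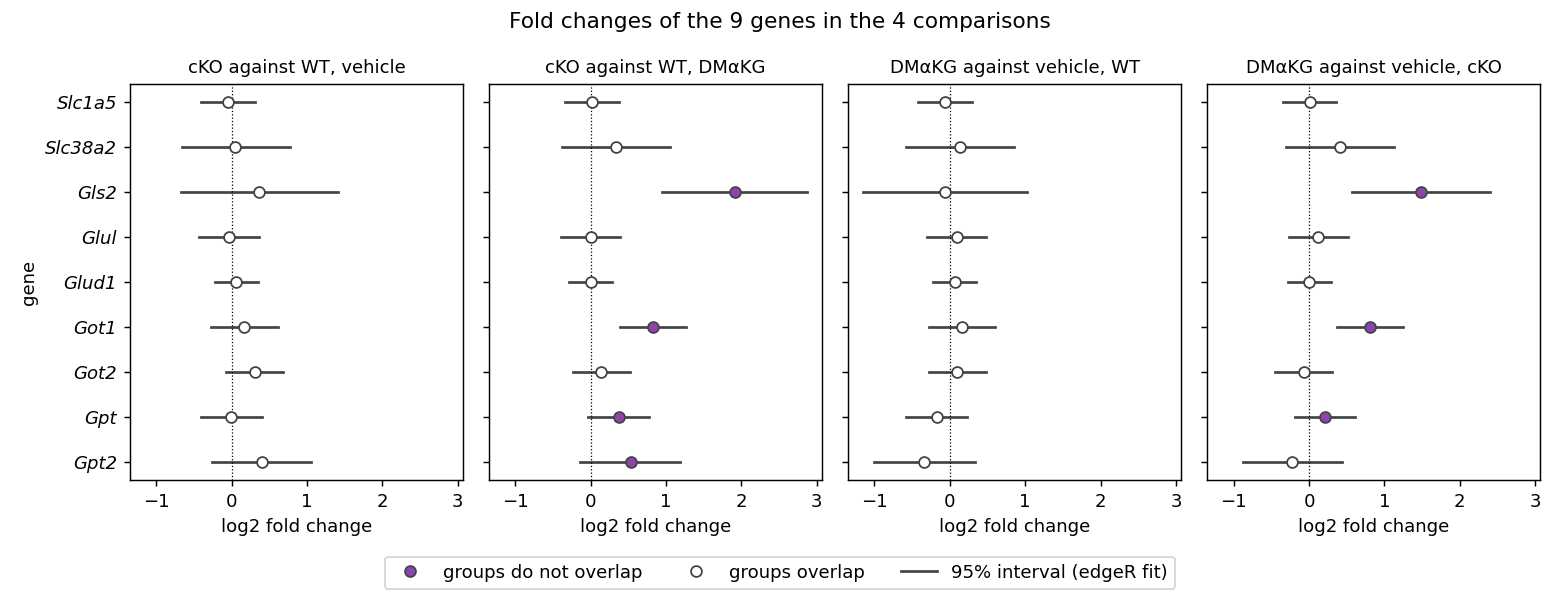
Log2 fold change of each of the 9 genes in the 4 pairwise comparisons, with 95% intervals from the fit and filled points where the groups' libraries did not overlap in CPM. In cKO against WT with DMαKG and in DMαKG against vehicle in cKO, the intervals of Gls2 and Got1 lie above 0, and the other intervals span it.

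Gene positions are given in GRCm38.p6. Neither carrier passed the test in any comparison. Slc1a5 (chr7:16781334-16798274, plus strand), a sodium-dependent exchanger that brings glutamine into the cell, ran from 185 to 273 CPM over the 12 libraries. Its group means were 247 ± 23.3 in WT and 239 ± 42.8 in cKO with vehicle, and 237 ± 16.9 in WT and 240 ± 48 CPM in cKO with DMαKG (SD, n = 3 each). Its fold in cKO against WT with vehicle had a 95% interval from 0.754 to 1.24, and with DMαKG from 0.791 to 1.3. Slc38a2 (chr15:96687392-96699728, minus strand), a sodium-coupled carrier of small neutral amino acids that cells induce when amino acids are short, varied most within groups. With vehicle it was at 377, 273 and 182 CPM in WT and at 251, 408 and 205 CPM in cKO. With DMαKG it was at 378, 352 and 184 CPM in WT and at 342, 378 and 432 CPM in cKO. The lowest library of each of the first 3 groups was the one that lay at the end of the first principal component, and the cKO libraries with DMαKG, none of which lay there, were at 342 CPM or more, a range that the highest libraries of each other group also reached. The log2 fold change in cKO against WT with DMαKG was 0.33, with a 95% interval from -0.38 to 1.05, and in cKO with DMαKG against vehicle 0.41, with an interval from -0.3 to 1.13.

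Gls2 encodes a mitochondrial glutaminase known as a target of p53 in other tissues. It was at 0.339, 0.278 and 0.21 CPM in WT and 0.325, 0.384 and 0.361 CPM in cKO with vehicle. With DMαKG it was at 0.293, 0.397 and 0.107 CPM in WT and at 1.23, 1.04 and 0.763 CPM in cKO. All 3 cKO libraries with DMαKG were above every other library, and the other 3 groups overlapped. These levels rest on few reads: a library held 12 to 19 counts in cKO with DMαKG and 2 to 7 in the other groups. Summed over the 3 libraries, 49 counts (exact 95% Poisson interval 36.3 to 64.8) stood against 14 (7.65 to 23.5) in WT with DMαKG and 20 (12.2 to 30.9) in cKO with vehicle, and these intervals cover counting error only. The fold was 3.76 in cKO against WT with DMαKG, with a 95% interval from 1.94 to 7.32 (log2 1.91 ± 0.44 SE, adjusted p = 0.145), and 2.8 in cKO with DMαKG against vehicle (1.49 to 5.27, adjusted p = 0.156). Gls2 exons overlap those of Spryd4 on the opposite strand at chr10:128194635-128210004 (GRCm38.p6), and the labels do not state whether reads were counted by strand, so its reads are uncertain. Spryd4 had a log2 fold change of 0.3 in cKO against WT with DMαKG and of 0.09 in cKO with DMαKG against vehicle (adjusted p = 0.662 and 0.833).

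Glul (chr1:153899929-153909723, plus strand), which makes glutamine from glutamate and ammonia, had group means of 88.8 ± 8.04 in WT and 86.5 ± 10.6 CPM in cKO with vehicle, and 94.5 ± 23 and 94.2 ± 18 CPM with DMαKG (SD, n = 3 each). Its 12 libraries lay between 69.4 and 115 CPM, and the groups overlapped. Glul exons overlap those of Teddm2 on the opposite strand, at 3 counts or fewer per library, and of Mir8114 on the same strand. Glud1 (chr14:34310727-34345033, plus strand), which interconverts glutamate and α-ketoglutarate in mitochondria, was at 257 ± 7.46 and 269 ± 15.6 CPM with vehicle and at 269 ± 31.5 and 269 ± 43.5 CPM with DMαKG, in WT and cKO. Its fold in cKO with DMαKG against vehicle had a 95% interval from 0.821 to 1.22. Leaving out replicate 3 of cKO with DMαKG, Glud1 was one of the 5 members whose cKO libraries with DMαKG lay above those with vehicle.

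Got1 (chr19:43499752-43524605, minus strand), the cytosolic aspartate aminotransferase, moves amino groups between glutamate and oxaloacetate and takes part in the malate-aspartate shuttle, which carries reducing equivalents into mitochondria. With vehicle it was at 42.1, 31.1 and 37.2 CPM in WT and at 36.2, 45.1 and 43.1 CPM in cKO. With DMαKG it was at 43.1, 48.8 and 31.3 CPM in WT and at 58.5, 64.9 and 95.1 CPM in cKO. Every cKO library with DMαKG was above every other library, with replicate 3, the one that stood apart on the first principal component, well above the others of its group. The fold was 1.78 in cKO against WT with DMαKG, with a 95% interval from 1.31 to 2.41 (log2 0.83 ± 0.2 SE, adjusted p = 0.165), and 1.76 in cKO with DMαKG against vehicle (1.29 to 2.38, adjusted p = 0.144). Without that replicate the log2 fold changes were 0.59 (adjusted p = 0.322) and 0.58 (adjusted p = 0.347). The interaction of genotype and DMαKG, which tests whether the effect of DMαKG differed between genotypes, was 0.66 ± 0.29 on the log2 scale for Got1 (adjusted p = 0.955) and 1.54 ± 0.67 for Gls2 (adjusted p = 0.955), so a difference between genotypes was not shown. Of the 3 cKO libraries with DMαKG, replicates 1 and 3 had low Ddx3y and replicate 2 had 155 CPM. With Y-linked expression as a covariate, the log2 fold changes in cKO against WT with DMαKG were 0.8 for Got1 and 1.81 for Gls2 (adjusted p = 0.516 and 0.445). In DMαKG against vehicle in cKO they were 0.78 and 1.34 (adjusted p = 0.975 for both). There the vehicle libraries had Ddx3y at 156 to 219 CPM. With 3 libraries a group, such a fit cannot settle the part of Y-linked expression in these values. Summed Treg markers (6 genes, none at 0 in any library) were also highest in this group, at 5150 to 6210 CPM against 3330 to 4970 CPM in the other libraries, and replicate 3 had the most neutrophil marker RNA (5 genes), at 27 CPM against at most 7.55 CPM elsewhere. It was also highest in summed B cell (7 genes, 42.6 against at most 25.3 CPM), dendritic cell (12 genes, 355 against at most 331 CPM) and CD8 T and NK cell markers (8 genes, 37.8 against at most 34.1 CPM). CD8 T and NK cell markers were at 30.2 to 37.8 CPM in the cKO libraries with DMαKG, above WT with DMαKG at 24.2 to 28.9 CPM and cKO with vehicle at 28.2 to 29.1 CPM. The part of all these markers in the Got1 and Gls2 values was not tested.

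Got2 (chr8:95864133-95888401, minus strand), the mitochondrial partner of Got1, was at 95.2, 101 and 123 CPM in WT and 121, 136 and 137 CPM in cKO with vehicle. With DMαKG it was at 103, 120 and 119 CPM in WT and at 141, 148 and 87.3 CPM in cKO. In cKO the replicate with the highest Got1 had the lowest Got2, so its Got1 to Got2 ratio in TPM was 1.27, where the other 11 libraries lay between 0.306 and 0.515. The log2 fold change of Got2 in cKO against WT with vehicle was 0.31 ± 0.17 (adjusted p = 0.798), the largest of the 4 pairwise comparisons for this gene. A pseudogene copy of Got2, Got2-ps1, lies elsewhere in the genome, and reads from it could not be told apart here. Got2 exons also overlap those of Gm45760 on the opposite strand, so the limit on strand given for Gls2 holds here too.

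The alanine aminotransferases exchange amino groups between glutamate and pyruvate. Gpt (chr15:76696726-76699675, plus strand) was at 4.97, 3.89 and 4.93 CPM in WT and 5.04, 4.45 and 4.23 CPM in cKO with vehicle. With DMαKG it was at 4.45, 3.46 and 4.32 CPM in WT and at 5.57, 5.19 and 5.09 CPM in cKO. On this scale the cKO libraries with DMαKG were the 3 highest of the 12, though by a small margin over 5.04 CPM, and in TPM they overlapped the other groups. The log2 fold change against WT with DMαKG was 0.37 ± 0.19 (adjusted p = 0.517), with a 95% interval from -0.03 to 0.78. Gpt2 (chr8:85492576-85528902, plus strand) was at 7.45, 4.66 and 9.65 CPM in WT and 6.23, 8.35 and 14.1 CPM in cKO with vehicle, a wide spread. With DMαKG it was at 5.92, 6.52 and 4.75 CPM in WT and at 8.35, 9.18 and 7.19 CPM in cKO, where the libraries of the genotypes did not overlap in CPM but did in TPM, and the cKO libraries with vehicle reached higher still. Its log2 fold change in cKO against WT with DMαKG was 0.53 ± 0.31 (adjusted p = 0.588).

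**Figure D3:**
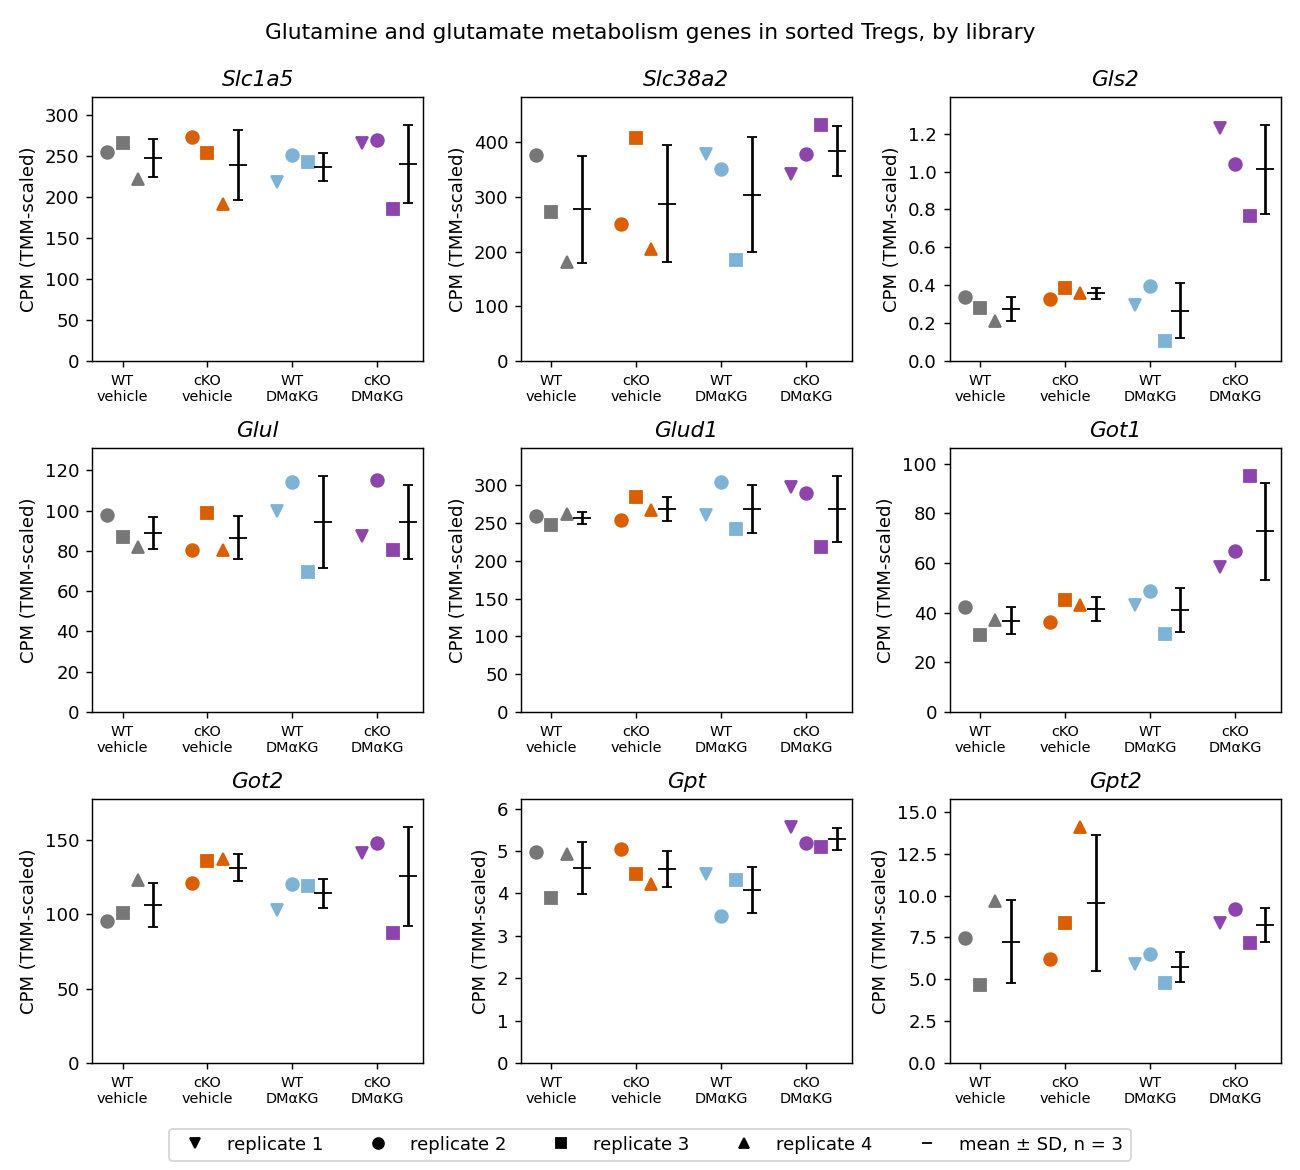
CPM of each of the 9 genes in every library, by group, 1 panel per gene, with the mean ± SD of 3 libraries as bars and the shape of a point giving the replicate number. In the panels for Gls2 and Got1 the 3 cKO libraries with DMαKG lie above all others, and in that for Slc1a5 the 4 groups overlap.

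Beyond the members, 78 genes of connected steps were listed, of which 65 were tested, and 0 were called in any of the 4 comparisons, with 2, 7, 0 and 9 at an unadjusted p below 0.05 in cKO against WT with vehicle and with DMαKG and in DMαKG against vehicle in WT and in cKO. These are 3.08%, 10.8%, 0% and 13.8% of the 65, near or below the shares of all genes, 7.29%, 10.4%, 2.73% and 17.3%. Between genotypes with DMαKG, 45 were higher and 20 lower, with a median log2 fold change of 0.1 beside 0 for all genes. By list in that comparison, where 50% of all genes were higher, 11 of 12 other enzymes of glutamate metabolism and connected steps were higher. So were 8 of 10 amino acid carriers, counting the heavy chain Slc3a2, and 7 of 8 mitochondrial carriers. Of these lists, 2, 1 and 1 genes had an unadjusted p below 0.05. The amidotransferases had 6 of 10 higher, the shuttle and 2-oxoglutarate enzymes 5 of 9, the glutathione and proline genes 5 of 11, with a median of -0.06, and the regulators 3 of 5. These glutamate enzymes were also mostly higher in DMαKG against vehicle, with 11 of 12 in WT and 9 of 12 in cKO. There, 49.8% and 50.4% of all genes were higher. In cKO against WT with vehicle, 10 of 12 were higher, beside 51.6%. Between genotypes with DMαKG, the 4 with the smallest p were Kyat3 (log2 0.61), Asns (0.85), Slc3a2 (0.61) and Aldh5a1 (0.58). Their adjusted p were 0.331, 0.331, 0.335 and 0.368. Kyat3 is a glutamine-using kynurenine aminotransferase, and Asns makes asparagine with glutamine. Slc3a2 is the heavy chain that carries Slc7a5 to the membrane, and Aldh5a1 oxidises succinic semialdehyde. Slc3a2 was at 126 ± 27.5 and 131 ± 25.9 CPM with vehicle and 152 ± 41 and 232 ± 8.3 CPM with DMαKG, in WT and cKO (SD, n = 3 each). Asns averaged, with DMαKG, 9.17 ± 1.69 CPM in WT against 16.5 ± 6.56 CPM in cKO (SD, n = 3 each), and its libraries overlapped. Of the other genes with TGATGNAA, Pycr1 had a log2 fold change of 0.1 and Slc7a7 of 0.21 in that comparison (adjusted p = 0.933 and 0.824).

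In cKO with DMαKG against vehicle, 40 of the 65 were higher and 25 lower, with a median of 0.03, beside 50.4% of all genes higher. The smallest p were those of Slc3a2 (log2 0.83), Trp53, the p53 gene (-0.63), Mpc1, a subunit of the mitochondrial pyruvate carrier (0.56), and Kyat3 (0.6), with adjusted p of 0.145, 0.192, 0.201 and 0.201. Trp53 averaged 136 ± 2.88 CPM with vehicle against 87.9 ± 27.3 CPM with DMαKG (SD, n = 3 each). Its libraries did not overlap, beside 21.1% of all genes. With DMαKG it was at 101, 106 and 56.6 CPM in cKO and at 100, 94 and 141 CPM in WT. The lowest of these, and the highest Mpc1 in cKO with DMαKG (75.3 CPM, against 52.1 and 41), were in replicate 3 of cKO. That library stood apart on the first principal component. In cKO against WT with vehicle, 47 were higher and 18 lower, led by Aldh5a1 at log2 0.67 (adjusted p = 0.426), the mitochondrial isocitrate dehydrogenase Idh2 at 0.37 (0.52), the amino acid exchanger Slc7a5 at 0.43 (0.706) and the glutathione synthetase Gss at 0.38 (0.71). In DMαKG against vehicle in WT, 38 were higher and 27 lower, and Asns (-0.42), Gfpt1 of the hexosamine pathway (-0.2), Idh3g, a subunit of the NAD-dependent isocitrate dehydrogenase (0.21), and Idh2 (0.17) had the smallest p, all with adjusted p = 0.999.

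**Figure D4:**
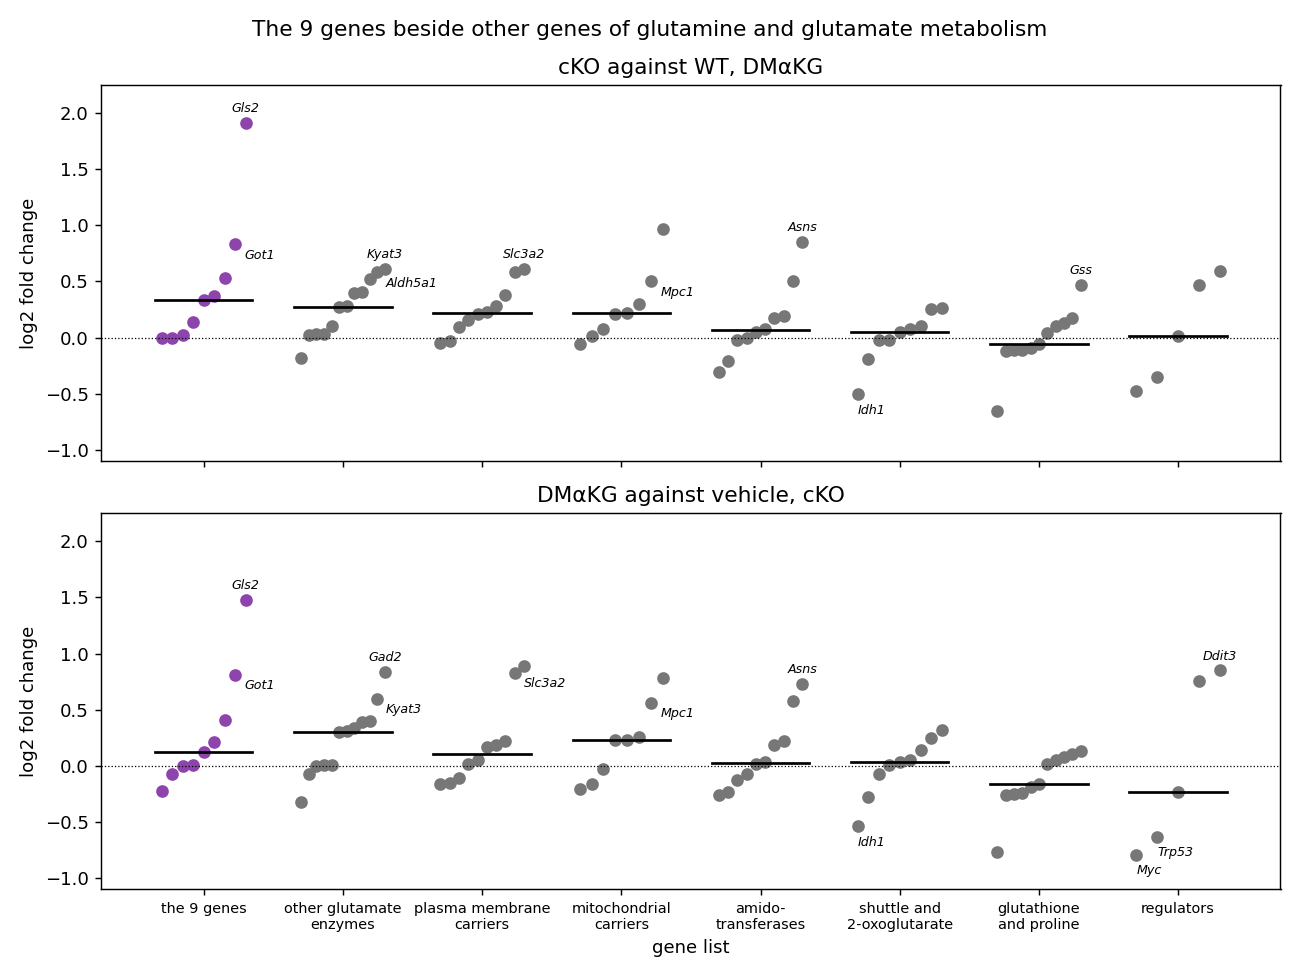
Log2 fold change of the 65 tested pathway genes beside the 9 members (purple), by list, in cKO against WT with DMαKG and in DMαKG against vehicle in cKO, with the median of each list as a line and genes at an unadjusted p below 0.05 named. Most points of the other glutamate enzymes and of both carrier lists lie above 0 in cKO against WT with DMαKG, the other 4 lists are more evenly split around 0, and no gene passed the adjusted threshold.

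As a description across the 12 libraries, which share groups and depth, the genes whose log2 CPM followed a member most closely are named with Pearson's r, without a test. Got1 went with Chchd6, Cdk6 and Mtx1 (r = 0.95 each), and Slc38a2 with Snx18, Cd69, an early activation marker, and Sertad1 (0.97 each). Got2 went with Polr2m (0.97), Zc3h7b (0.96) and Plbd2 (0.94), and Glud1 with Ssbp3 (0.94), Armh3 (0.93) and Eftud2 (0.93). Glul went with Josd1 (0.94), Chd1l (0.9) and Bach2 (0.87), Gpt2 with Fbln1 (0.95), 2700081O15Rik (0.94) and Pxmp2 (0.9), and Slc1a5 with Plekhm2, Nod2 and Skiv2l (0.95 each). Gpt and Gls2 were below the mean of 5 CPM required for this.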

How the data were processed

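RNA from sorted Tregs was measured in 12 libraries, 3 mice per group per the series' design text, with groups and replicate numbers taken from the sample labels. Per the submitters' processing notes, the tools were DESeq2 1.16.1, featureCounts 1.5.0-p3 and HISAT2 2.0.5 on mm10, with their roles not stated. The deposited table lists 17955 genes, each with estimated counts, FPKM and TPM for every library, per the file headers. Estimated counts were deposited without normalization, and since 36% were fractional they were rounded for the count tests. The authors' FPKM was not tested. The authors' TPM was used for levels per transcript length and in an alternative test on log2(TPM + 0.1). Library totals were 15700000 to 18900000. In the fit described next, with 3 libraries a group, the median standard error of the pairwise log2 fold changes was 0.18.

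Genes were filtered with edgeR's expression filter, which left 12903, scaled by TMM and fitted with edgeR 4.0.16 in R 4.3.3 (quasi-likelihood, robust estimation, 1 mean per group, 8 residual degrees of freedom). The contrasts were the 4 pairwise ones, genotype and DMαKG each averaged over the other factor, and the interaction, with Benjamini-Hochberg adjustment over all genes tested and calls at 0.05. CPM was computed with TMM-scaled totals.

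All 9 members are named. Of the pathway genes, those past the threshold, or otherwise the 4 with the smallest p in a pairwise comparison among genes averaging 5 CPM or more in a group, are named, and Tkt is given as the check of the labels. For a member with a mean of at least 5 CPM over all libraries, the 3 genes with the highest Pearson correlation are named. The members and lists were chosen with earlier results of these data known. Alternatives were DESeq2 size factors, no low-count filter, DESeq2 1.42.0, limma 3.58.1 voom with quality weights, a fit on the groups compared, the replicate block, a Y-linked covariate, and leaving out libraries. The test on TPM, the fit without robust estimation and the counts of non-overlapping groups on TPM or without libraries were chosen after seeing the data. The fits were tested on simulated data. Coordinates and promoters are from RefSeq tables of GRCm38.p6, the same assembly as mm10.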

Additional observations from a re-analysis of the deposited data

How the results depend on the processing

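No member passed the threshold in any of the 7 comparisons, and this held in 20 of 22 alternatives for cKO against WT with DMαKG and for DMαKG in cKO, in 22 of 22 for cKO against WT with vehicle and DMαKG in WT, and in 21 of 21 for the interaction. DESeq2's Wald test gave 1 call in each of the first 2, Got1 (log2 0.82 in both, adjusted p = 0.0261 and 0.0164), and limma voom with quality weights gave 1 in each, Gls2 (1.85 and 1.56, adjusted p = 0.021 and 0.0373). For genotype averaged over treatments, voom gave 2, Gls2 and Got2 (1.07 and 0.36, adjusted p = 0.0221 and 0.024), and for DMαKG averaged over genotypes it gave 1, Got1 (0.37, adjusted p = 0.046). For Got1 there, voom's unadjusted p was 0.00501, while the main edgeR fit's 0.00519 became 0.174 after adjustment. In that comparison voom thus called more of all genes than the main fit. The shares of all genes called in the alternatives are not given, so their calls are not read as a result about the members. Leaving out 1 library at a time gave 0 to 1 members for DMαKG averaged, where leaving out replicate 3 of WT with DMαKG called Got1 (0.57, adjusted p = 0.0394), and 0 in the others. The cause of these differences was not tested. In cKO against WT with DMαKG, Got1 ranged from 0.52 to 0.99 and Gls2 from 1.53 to 2.33, with the same sign in 22 of 22 alternatives and adjusted p from 0.0261 to 0.516 and from 0.021 to 0.445. In DMαKG against vehicle in cKO they ranged from 0.54 to 0.97 and from 1.14 to 1.65. The alternatives reuse the same libraries. Gls2 passed the low-count filter only through cKO with DMαKG, so its sign and its calls are given as values and not as support.

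A change of sign was counted as a reversal where the main value was at least 1 SE from 0. By that measure Gpt2 reversed 3 times: without the 3 libraries at one end of the first principal component it was 0.04 in DMαKG against vehicle in WT and 0.12 averaged over genotypes, and with the replicate block 0.02 averaged over genotypes. With the replicate block, in cKO against WT with DMαKG, Gls2 was 1.95 and Got1 0.81 (adjusted p = 0.297 and 0.415), and the count of members called was 0 in every comparison. Same-numbered libraries of the genotypes had correlations of their deviations from the group means of -0.12, 0.14 and 0.47 with vehicle and -0.25, -0.09 and -0.28 with DMαKG, so the numbers are not treated as pairs. Gls2, at 2 to 19 counts per library, is limited by depth.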
